A study of Saccharomyces cerevisiae with 20 samples.

Results

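The DAN, TIR and PAU genes of budding yeast encode anaerobic mannoproteins and related small proteins, and 30 of them were followed here through strains that lack a transcriptional repressor and through 2 stages of glucose exhaustion. They were taken by name and systematic identifier and comprised DAN1, DAN4, TIR1, TIR2, TIR3, TIR4 and the seripauperin genes PAU1 to PAU24, out of 6921 genes listed in at least 1 of the 8 deposited tables. The strains were null mutants of TUP1, SDS3, XBP1 or ISW2 (Δtup1, Δsds3, Δxbp1 and Δisw2), each made by replacing the whole gene with an antibiotic resistance marker, and their wild type (WT), all in the W303 RAD5+ background. All were grown in rich glucose medium (YPD) at 30 °C and harvested either at stationary phase, after 3 days, or at diauxic shift, some time after glucose had become undetectable. Poly-A selected RNA was sequenced from 2 biological replicates of every strain at each phase, 20 libraries in all. Δtup1 cells clump, so the study worked with stationary cultures and not with purified quiescent cells.

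DAN and TIR proteins are serine- and threonine-rich mannoproteins of the cell wall, attached through a glycolipid anchor, that take the place of the aerobic wall proteins when oxygen runs out. PAU genes form the largest gene family of the species and encode small serine-poor proteins related to the amino-terminal part of the DAN and TIR proteins. In aerobic cells the group is kept silent by DNA-binding repressors such as Rox1 and Mot3, which recruit the Tup1-Cyc8 corepressor, and it is switched on without oxygen by the zinc cluster activator Upc2 through a promoter element called AR1. Sds3 is a subunit of the large Rpd3 histone deacetylase complex, Isw2 is the ATPase of a chromatin remodelling complex that slides nucleosomes over promoters, and Xbp1 is a DNA-binding repressor made in starved cells.

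The family is printed first by a piece of coding sequence that many of its members share, since such sharing bears on how far short reads can be told apart. Stretches of 37 bases, the number of sequencing cycles of each read of a pair, were cut from every gene in the R64 reference (the sacCer3 build), and the stretch carried by the most members was found without change in 13 of the 30, all of them PAU genes, and at 14 places in the genome. In the lines below, capitals mark bases that differ from that common form, given under PAU24. The form of PAU15 was also that of PAU16, PAU19, PAU21 and PAU22, and the form of PAU17 was also that of PAU23.
PAU24 (chrII:809262-809298, plus strand): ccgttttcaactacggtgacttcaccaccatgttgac
PAU15 (chrIX:434143-434179, plus strand): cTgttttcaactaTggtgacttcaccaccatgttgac
PAU5 (chrVI:99352-99388, minus strand): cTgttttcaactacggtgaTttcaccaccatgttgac
PAU17 (chrXII:94961-94997, plus strand): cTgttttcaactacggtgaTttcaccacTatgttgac
PAU3 (chrIII:308015-308051, plus strand): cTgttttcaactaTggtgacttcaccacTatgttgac
DAN1 (chrX:709460-709496, minus strand): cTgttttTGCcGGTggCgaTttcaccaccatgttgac
DAN4 (chrX:715493-715529, minus strand): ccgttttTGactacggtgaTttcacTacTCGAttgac
PAU5 and PAU15 differed from the common form at 2 and 2 bases, PAU17 and PAU3 at 3 each, DAN4 at 8 and DAN1 at 9. For the TIR genes the stretch was placed by an alignment with gaps, and 23 or 24 bases differed when it was read without gaps. The window with the fewest differences was not searched for, so these values do not measure how close the TIR genes are.

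The share of a gene's 37-base stretches that occur once in the genome was 100% for DAN1 and TIR3, 99.4% for TIR2, 84.9% for TIR1, 77% for DAN4 and 76.8% for TIR4. Among the PAU genes it was 90.9% for PAU7, 85.8% for PAU23, 81.4% for PAU17, 68.8% for PAU5 and 32.4% for PAU24, and under 10% for 8 of the 24, with 0% for PAU1, PAU6, PAU9, PAU14, PAU18, PAU21 and PAU22. PAU1 and PAU14 are identical in sequence, as are PAU6 and PAU18, and PAU21 and PAU22. Reads assigned over the 20 libraries ran from 0 for PAU1 and PAU14 to 40657 for PAU5, and followed the unique share across the 24 PAU genes with a Spearman rho of 0.82, a description over genes of 1 family in the same libraries. How the authors assigned reads that fit several copies is not given in the sources used here, so values of a PAU gene with a low unique share can hold reads of its copies or lack reads of its own. These shares take each 37-base stretch by itself and leave out what the other read of a pair adds. Whether the W303 strains hold the same copies as the reference was not checked.

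**Figure D1:**
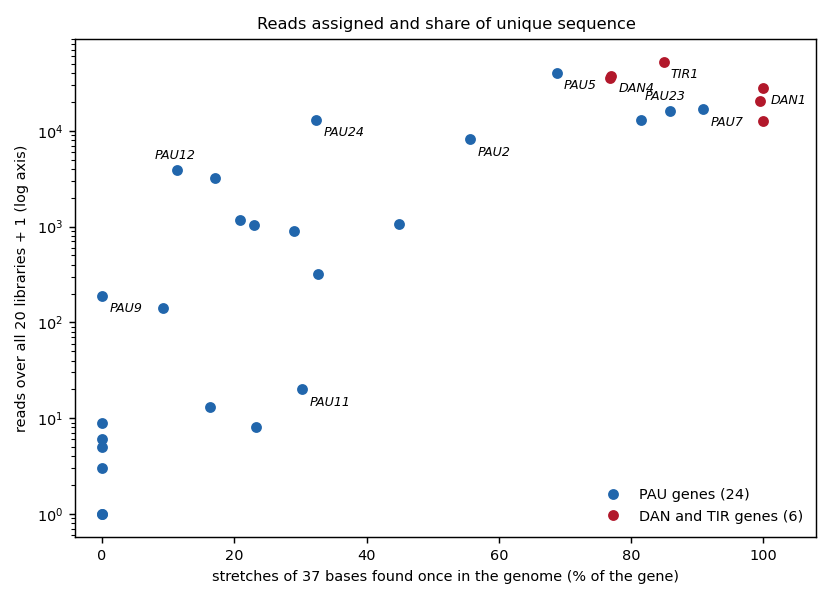
Each point is 1 gene, with the share of its 37-base stretches found once in the genome (percent) on the horizontal axis and its reads over all 20 libraries plus 1 on a logarithmic vertical axis; PAU genes are blue, DAN and TIR genes red. The PAU genes climb from 0 reads at 0% to 40657 reads for PAU5 at 68.8%, while the 6 DAN and TIR genes sit at 76.8% or more.

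Promoters were read over the 500 bases before the start codon of each gene, on both strands. The AR1 letters TCGTTNAG stood in 22 of the 30 members, in 3 of the 6 DAN and TIR genes and in 19 of the 24 PAU genes. They stood in 5.12% of 6000 yeast promoters of the same length and in 8.92% of the 381 within 30000 bases of a chromosome end. Both shares include the members, which make up part of the 34 promoters with a match near an end. The share near an end is thus not one of other genes. The matches in PAU genes are also not all separate occurrences, since upstream sequence is shared between copies. PAU3, PAU4, PAU9, PAU11 and PAU16 held a match with the same flanking bases, and PAU19, PAU21 and PAU22 held the same sites. The sites below are those of the DAN and TIR genes that hold one, of PAU24 and PAU12, which were high in Δtup1, and of PAU2 and PAU23, which were not, each read in the direction of its gene with the matched letters in capitals; a match on the other strand appears as its reverse complement.
DAN1 (chrX:710102-710129, minus strand, 412 bases before the start codon): attttatctgTCGTTTAGcacatatggc
DAN1 (chrX:709870-709897, minus strand, 180 bases before the start codon): taacaaaacaTCGTTCAGgaacagagaa
DAN4 (chrX:715919-715946, minus strand, 196 bases before the start codon): aagatctccaTCGTTCAGgaactgtaaa
TIR4 (chrXV:344102-344129, plus strand, 223 bases before the start codon): aacagggttcCTAAACGAtgcatttcta
PAU24 (chrII:808615-808642, plus strand, 432 bases before the start codon): taggtggcctCTTAACGAgggttcaaag
PAU12 (chrVII:1079863-1079890, plus strand, 433 bases before the start codon): tagatggcctCTGAACGAgggttcaaag
PAU2 (chrV:63334-63361, plus strand, 384 bases before the start codon): acagtggtttCTGAACGAacactcatat
PAU23 (chrXII:223489-223516, minus strand, 447 bases before the start codon): gatattgcccTCGTTCAGagggcacaga
DAN1 and DAN4, neighbours on chromosome X, hold the same 8 letters TCGTTCAG at 180 and 196 bases before their start codons. TIR1, TIR2, TIR3, PAU1, PAU5, PAU7, PAU13 and PAU14 had no match in this window. A second element, TCGTATA, bound by Upc2 and Ecm22 at sterol genes, stood in 12 of the 30 members and in 7% of all promoters, and the Rox1 core ATTGTTC in 5 members and 11.8% of all promoters. A match is a string of letters and was not tested as a binding site.

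The depth of the libraries bears on the rarer members. Reads on genes ran from 20963633 to 32558227 at diauxic shift, whereas at stationary phase the library numbered 1 of each strain held 9994448 to 28421881 and the library numbered 3 held 2543155 to 4424289. In the file headers, library 3 of each deletion carried another strain number than library 1, so depth and strain number changed together there, whereas both libraries of a deletion at diauxic shift shared 1 strain number. What the second number stands for is not given. Each deleted gene had between 0 and 8 reads in its own libraries. Levels below are normalized reads, reads divided by a median-ratio size factor computed over all 20 libraries, with libraries 1 and 3 in that order at stationary phase and 1 and 2 at diauxic shift. Fold changes against WT come from the authors' normalized counts within a table, as log2 of the count plus 1, with their standard errors after ±. A gene was called when limma's Benjamini-Hochberg adjusted p over all genes tested was under 0.05 and the change at least 1.5-fold. Of the 30 members, 21 were listed in all 8 tables, 7 in some of them and PAU1 and PAU14 in none, and PAU6, PAU11, PAU16, PAU18, PAU19, PAU21 and PAU22 never had more than 7 reads in a library and were not tested. Replicates disagreed more on these genes than on the genome in some groups. In WT at diauxic shift 20 of the 21 tested members were lower in library 1 than in library 2, with a median gap of 0.89 on the log2 scale against a median size of 0.32 over all genes with a mean of 10 reads, and in Δsds3 at diauxic shift 15 of 21 were higher in library 1, with a median gap of 1.03 against 0.75. Whether those gaps shape the results below was not tested beyond leaving out each library.

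Most members tested were higher in Δtup1 than in WT, with DAN1 and TIR1 the furthest from WT at diauxic shift. At stationary phase 13 of 20 members tested were called higher in Δtup1 than in WT and 2 lower, where 25.7% of all genes tested were called higher, 24% lower and 49.7% either way. With an unadjusted p under 0.05, 15 of 20 members and 57.1% of all genes passed. At diauxic shift 18 of 21 were called higher and 0 lower, where 13.8% and 6.27% of all genes were, 20.1% together. The median log2 fold change of the members tested was 2.48 at stationary phase and 3.79 at diauxic shift, against 0.00 and -0.02 over all genes, and 3.69 at diauxic shift with PAU10 set at its bound. These counts cover members that passed the filter on low reads, and 6 of the 20 at stationary phase and 5 of the 21 at diauxic shift passed it through the Δtup1 libraries alone. They were DAN1, PAU8, PAU9 and PAU20 at both phases, PAU4 and PAU13 at stationary phase and PAU10 at diauxic shift. Among the others 10 were called at stationary phase, 2 of them lower, and 13 at diauxic shift. In bulk cultures, more cells with an RNA and more of it in each cell cannot be told apart.

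**Figure D2:**
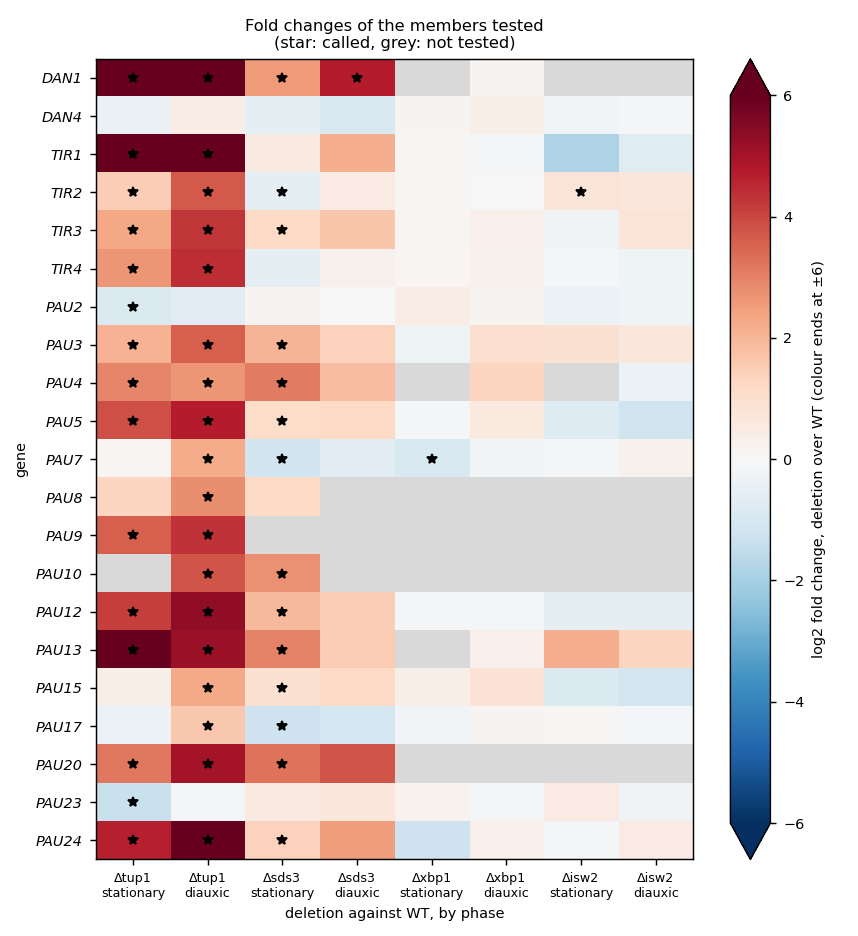
Log2 fold change of each deletion over WT (colour, ending at ±6) for the 21 members tested at least once, by strain and phase; stars mark called members and grey fields members with too few reads or not listed. Δtup1 columns are mostly dark red, Δsds3 columns carry both red and blue, and the Δxbp1 and Δisw2 columns hold 1 star each.

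DAN1 (YJR150C, chrX:708811-709707), the founding member and a wall mannoprotein of anaerobic cells, was near 0 in WT and had the largest fold change of the members in Δtup1 at both phases. It passed the filter on low reads through the Δtup1 libraries alone, and its fold changes are set against these low WT values. At stationary phase DAN1 had 3134 and 3033 normalized reads in Δtup1, 134 and 73 in Δsds3, 8.34 and 10.1 in Δxbp1, 7.64 and 4.63 in Δisw2 and 19.9 and 12.6 in WT. At diauxic shift DAN1 had 5955 and 8184 normalized reads in Δtup1, 145 and 87.7 in Δsds3, 2.19 and 7.74 in Δxbp1, 1.83 and 5.12 in Δisw2 and 2.12 and 6.38 in WT. Both Δtup1 libraries stood far above every other library at either phase, both Δsds3 libraries stood above the remaining 6, and those 6 overlapped at diauxic shift. The log2 fold change in Δtup1 was 7.45 ± 0.28 (limma adjusted p = 1.49e-08) at stationary phase and 10.68 ± 0.38 (limma adjusted p = 3.5e-15) at diauxic shift. TIR1 (YER011W, chrV:175248-176012), a wall mannoprotein also induced by cold, gave the same order of strains at the top. At stationary phase TIR1 had 4696 and 3109 normalized reads in Δtup1, 96 and 73 in Δsds3, 51.2 and 65.4 in Δxbp1, 21.7 and 9.27 in Δisw2 and 52.8 and 60.0 in WT. At diauxic shift TIR1 had 13729 and 13989 normalized reads in Δtup1, 92.9 and 167 in Δsds3, 21.9 and 28.8 in Δxbp1, 18.3 and 13.3 in Δisw2 and 20.4 and 34.6 in WT. Its log2 fold change in Δtup1 was 6.03 ± 0.26 (limma adjusted p = 3.27e-08) at stationary phase and 9.01 ± 0.31 (limma adjusted p = 3.3e-15) at diauxic shift. In RPKM, which divides reads by gene length and library size, TIR1 at diauxic shift averaged 992 in Δtup1 against 2.39 in WT, and DAN1 432 against 0.310.

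TIR2, TIR3 and TIR4, wall mannoproteins of the same kind, had a higher base level in WT and rose less. At stationary phase TIR4 (YOR009W, chrXV:344335-345798) had 3136 and 2753 normalized reads in Δtup1, 394 and 268 in Δsds3, 549 and 443 in Δxbp1, 438 and 440.2 in Δisw2 and 477 and 455 in WT. At diauxic shift TIR4 had 6195 and 8044 normalized reads in Δtup1, 358 and 459 in Δsds3, 365 and 407 in Δxbp1, 243 and 312 in Δisw2 and 289 and 368 in WT. Δtup1 libraries were above all others at both phases, by a log2 fold change over WT of 2.63 ± 0.20 (limma adjusted p = 2.94e-06) at stationary phase and 4.44 ± 0.31 (limma adjusted p = 2.94e-10) at diauxic shift. At stationary phase TIR3 (YIL011W, chrIX:333727-334536) had 720.3 and 460.1 normalized reads in Δtup1, 300.1 and 229 in Δsds3, 146 and 101 in Δxbp1, 90.4 and 107 in Δisw2 and 126 and 101 in WT. At diauxic shift TIR3 had 2038 and 2415 normalized reads in Δtup1, 359 and 377 in Δsds3, 136 and 148 in Δxbp1, 175 and 209.8 in Δisw2 and 74.7 and 173 in WT. Here Δsds3 libraries took the second place at both phases, and the fold changes in Δtup1 were 2.32 ± 0.29 (limma adjusted p = 7.08e-05) at stationary phase and 4.29 ± 0.34 (limma adjusted p = 3.41e-09) at diauxic shift. At stationary phase TIR2 (YOR010C, chrXV:346195-346950) had 1369.5 and 1184 normalized reads in Δtup1, 314 and 288 in Δsds3, 470.4 and 473 in Δxbp1, 832 and 746 in Δisw2 and 479 and 433 in WT. At diauxic shift TIR2 had 2724 and 3717 normalized reads in Δtup1, 354 and 371 in Δsds3, 232 and 272 in Δxbp1, 323 and 482 in Δisw2 and 214 and 284 in WT. The second place belonged to Δisw2 at stationary phase, and TIR2 changed in Δtup1 by 1.46 ± 0.21 (limma adjusted p = 0.00021) and 3.69 ± 0.31 (limma adjusted p = 6.12e-09) at stationary phase and diauxic shift, in that order.

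DAN4 (YJR151C, chrX:712255-715740), the next gene to DAN1, was the exception among the 6. At stationary phase DAN4 had 1099.9 and 852 normalized reads in Δtup1, 974 and 775 in Δsds3, 1508 and 1288 in Δxbp1, 1276 and 1000.96 in Δisw2 and 1301 and 1235 in WT. At diauxic shift DAN4 had 2114 and 2002 normalized reads in Δtup1, 741 and 945 in Δsds3, 1797 and 2159 in Δxbp1, 1123 and 1745 in Δisw2 and 1118 and 2104 in WT. The largest of the DAN and TIR genes, it was already abundant in WT, and its Δtup1 libraries overlapped WT at diauxic shift and were both below WT at stationary phase. The log2 fold change in Δtup1 was -0.41 ± 0.22 (limma adjusted p = 0.137) at stationary phase and 0.43 ± 0.33 (limma adjusted p = 0.379) at diauxic shift, and it was called in none of the 8 comparisons with WT. Of its 37-base stretches, 23% occur more than once in the genome.

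**Figure D3:**
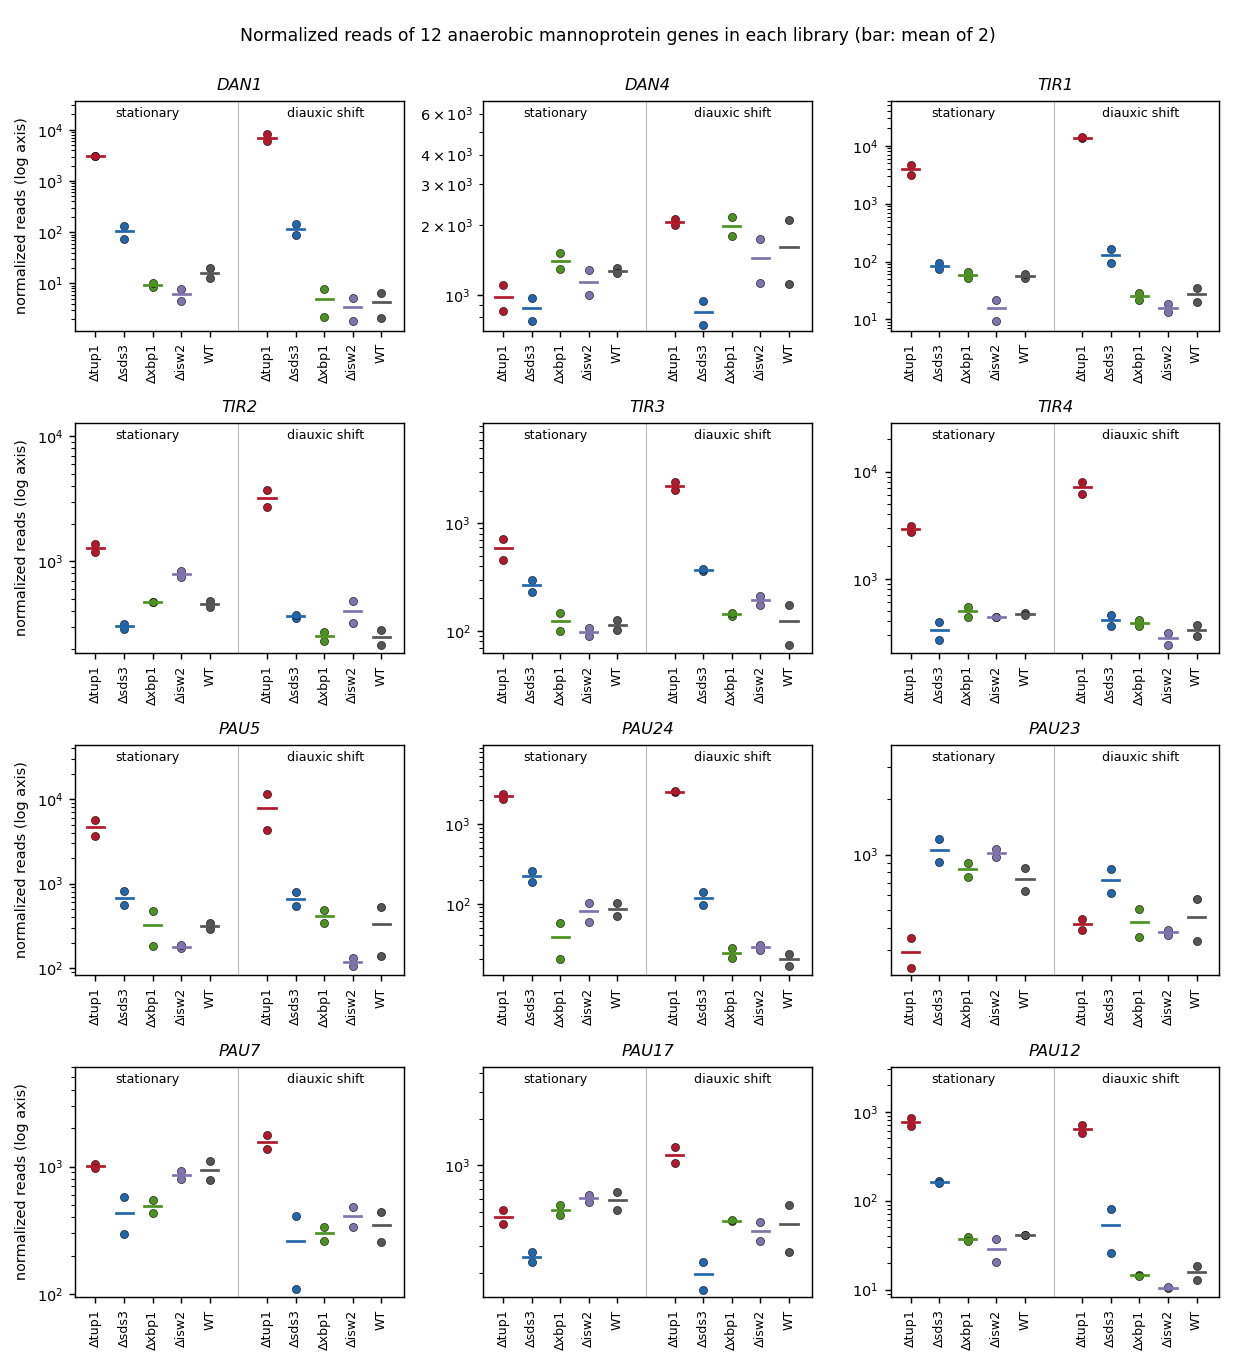
Normalized reads (logarithmic axis) of the 6 DAN and TIR genes and of the 6 PAU genes with the highest group mean, 1 panel per gene, with stationary phase on the left of each panel and diauxic shift on the right; each point is 1 library and each bar the mean of 2. Δtup1 (red) is the highest strain in the panels of DAN1, TIR1, TIR2, TIR3, TIR4, PAU5, PAU24 and PAU12 at both phases, DAN4 shows no such gap, and in PAU23 Δtup1 is the lowest strain at stationary phase.

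PAU5, PAU24, PAU12 and PAU13 were called higher in Δtup1 at both phases. At stationary phase PAU5 (YFL020C, chrVI:99231-99599) had 3714 and 5729 normalized reads in Δtup1, 809 and 552 in Δsds3, 469 and 181 in Δxbp1, 173 and 185 in Δisw2 and 290.2 and 338 in WT. At diauxic shift PAU5 had 4267 and 11688 normalized reads in Δtup1, 536 and 793 in Δsds3, 342 and 481 in Δxbp1, 105 and 133 in Δisw2 and 140.4 and 529 in WT. Both replicate pairs of Δtup1 were wide, yet neither reached another strain, and the log2 fold change was 3.86 ± 0.24 (limma adjusted p = 6.9e-07) at stationary phase and 4.70 ± 0.46 (limma adjusted p = 1.03e-07) at diauxic shift. At stationary phase PAU24 (YBR301W, chrII:809057-809419) had 2425 and 2052 normalized reads in Δtup1, 256 and 188 in Δsds3, 57.2 and 20.1 in Δxbp1, 59.9 and 102 in Δisw2 and 102 and 69.5 in WT. At diauxic shift PAU24 had 2569 and 2588 normalized reads in Δtup1, 141 and 97.9 in Δsds3, 27.7 and 21 in Δxbp1, 30.4 and 26.1 in Δisw2 and 16.5 and 23.4 in WT. Its Δtup1 replicates lay close together, with log2 fold changes of 4.69 ± 0.25 (limma adjusted p = 2.2e-07) and 7.0 ± 0.32 (limma adjusted p = 2.8e-13) at stationary phase and at diauxic shift. At stationary phase PAU12 (YGR294W, chrVII:1080306-1080668) had 687 and 856 normalized reads in Δtup1, 167 and 159.8 in Δsds3, 39.3 and 35.2 in Δxbp1, 20.4 and 37.1 in Δisw2 and 41.2 and 41.1 in WT. At diauxic shift PAU12 had 571 and 710.1 normalized reads in Δtup1, 80.7 and 25.7 in Δsds3, 14.6 and 14.4 in Δxbp1, 10.3 and 10.7 in Δisw2 and 12.7 and 18.6 in WT. At stationary phase PAU13 (YHL046C, chrVIII:11923-12285) had 569 and 668 normalized reads in Δtup1, 73.5 and 66 in Δsds3, 9.53 and 5.03 in Δxbp1, 33.1 and 51 in Δisw2 and 16.5 and 3.16 in WT. PAU12, PAU13 and PAU24 belong to the set with the common stretch, 98.9% of the bases of PAU12 being those of PAU24. At diauxic shift PAU13 had 487 and 594 normalized reads in Δtup1, 67.3 and 27.5 in Δsds3, 16.8 and 18.8 in Δxbp1, 25.6 and 49.1 in Δisw2 and 9.33 and 21.8 in WT. PAU12 changed in Δtup1 by 4.15 ± 0.27 at stationary phase and 5.33 ± 0.36 at diauxic shift, and PAU13 by 6.04 ± 0.53 and 5.19 ± 0.39, all called.

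PAU7, PAU17, PAU23 and PAU2 were expressed in WT and behaved otherwise. They lie farther than 30000 bases from a chromosome end and, except for PAU2, at least 75% of their stretches are unique. PAU5, called higher in Δtup1 at both phases, also lies far in, at 99230 bases. Its WT libraries averaged 314 normalized reads at stationary phase and 335 at diauxic shift. At stationary phase PAU7 (YAR020C, chrI:176856-177023) had 1055 and 972 normalized reads in Δtup1, 576 and 295 in Δsds3, 550.2 and 433 in Δxbp1, 916 and 792 in Δisw2 and 1111 and 780.3 in WT. At diauxic shift PAU7 had 1367 and 1754 normalized reads in Δtup1, 412 and 109.8 in Δsds3, 263 and 339 in Δxbp1, 339 and 486 in Δisw2 and 257 and 439 in WT. Δtup1 overlapped WT at stationary phase and exceeded it at diauxic shift, with log2 fold changes of 0.10 ± 0.23 (limma adjusted p = 0.725) and 2.21 ± 0.32 (limma adjusted p = 2.28e-05). At stationary phase PAU17 (YLL025W, chrXII:94747-95121) had 513 and 412 normalized reads in Δtup1, 270.2 and 233 in Δsds3, 550.2 and 473 in Δxbp1, 645 and 575 in Δisw2 and 666 and 515 in WT. At diauxic shift PAU17 had 1035 and 1317 normalized reads in Δtup1, 235 and 155 in Δsds3, 433 and 439 in Δxbp1, 319 and 425 in Δisw2 and 273 and 552 in WT. Both Δtup1 libraries lay just under both WT libraries at stationary phase and above them at diauxic shift, with -0.37 ± 0.24 (limma adjusted p = 0.219) at stationary phase and 1.59 ± 0.33 (limma adjusted p = 0.00141) at diauxic shift. The PAU17 call was lost without WT library 1, at 1.12.

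PAU23 and PAU2 were lower in Δtup1 at stationary phase. At stationary phase PAU23 (YLR037C, chrXII:222685-223059) had 350.5 and 240.1 normalized reads in Δtup1, 1222 and 907 in Δsds3, 905 and 759.6 in Δxbp1, 972 and 1079.7 in Δisw2 and 841 and 635 in WT. At diauxic shift PAU23 had 446 and 387 normalized reads in Δtup1, 831 and 621 in Δsds3, 357 and 503 in Δxbp1, 389 and 363 in Δisw2 and 337 and 575 in WT. It was called lower in Δtup1 at stationary phase, at -1.35 ± 0.26 (limma adjusted p = 0.0014), where its Δtup1 libraries were below all 8 others, and stood at -0.08 ± 0.32 (limma adjusted p = 0.891) at diauxic shift. At stationary phase PAU2 (YEL049W, chrV:63728-64090) had 178 and 104 normalized reads in Δtup1, 371 and 215 in Δsds3, 359.7 and 317 in Δxbp1, 187 and 199 in Δisw2 and 249 and 249.6 in WT. At diauxic shift PAU2 had 252 and 190.0 normalized reads in Δtup1, 492 and 241 in Δsds3, 431 and 339 in Δxbp1, 332.2 and 237 in Δisw2 and 319 and 359.9 in WT. The call at stationary phase, -0.88 ± 0.31 (limma adjusted p = 0.032), was lost when either WT library or the shallow Δtup1 library 3 was left out, with values between -0.49 and -0.89, and in DESeq2. At diauxic shift the value was -0.62 ± 0.31 (limma adjusted p = 0.167).

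The remaining PAU genes had few reads. At stationary phase PAU3 had 106 and 88 normalized reads in Δtup1, 104 and 79.9 in Δsds3, 27.4 and 10.1 in Δxbp1, 48.4 and 37.1 in Δisw2 and 24.2 and 19 in WT. At diauxic shift PAU3 had 98.1 and 102 normalized reads in Δtup1, 45.1 and 10.7 in Δsds3, 17.5 and 14.9 in Δxbp1, 11.6 and 14.8 in Δisw2 and 5.09 and 12.2 in WT. Δtup1 was above WT at both phases, by 2.07 ± 0.40 and 3.58 ± 0.48, both called. At stationary phase PAU4 had 75.5 and 80.0 normalized reads in Δtup1, 109.7 and 66 in Δsds3, 15.5 and 5.03 in Δxbp1, 6.37 and 0 in Δisw2 and 11.6 and 6.32 in WT. At diauxic shift PAU4 had 66.2 and 73.2 normalized reads in Δtup1, 92.1 and 17.9 in Δsds3, 29.9 and 24.3 in Δxbp1, 6.09 and 11.3 in Δisw2 and 6.36 and 17.5 in WT. For this gene Δsds3 and Δtup1 overlapped at both phases, and Δtup1 exceeded WT by 2.94 ± 0.50 at stationary phase and 2.66 ± 0.49 at diauxic shift, both called, the second lost with all 5 groups of the phase in 1 fit. At stationary phase PAU20 had 88.4 and 72 normalized reads in Δtup1, 105 and 62.5 in Δsds3, 3.57 and 5.03 in Δxbp1, 6.37 and 13.9 in Δisw2 and 15.5 and 3.16 in WT. At diauxic shift PAU20 had 78.1 and 101 normalized reads in Δtup1, 70.7 and 20.9 in Δsds3, 0 and 2.77 in Δxbp1, 0.609 and 2.56 in Δisw2 and 0.849 and 5.32 in WT. Δtup1 and Δsds3 overlapped at stationary phase, and at diauxic shift both Δtup1 libraries were above both of Δsds3, with Δtup1 over WT by 3.16 ± 0.63 and 4.98 ± 0.61, both called. At stationary phase PAU15 had 91.7 and 64 normalized reads in Δtup1, 121 and 101 in Δsds3, 85.7 and 65.4 in Δxbp1, 30.6 and 32.4 in Δisw2 and 56.7 and 60.0 in WT. At diauxic shift PAU15 had 47.5 and 79 normalized reads in Δtup1, 70.0 and 11.9 in Δsds3, 20.4 and 26.6 in Δxbp1, 2.43 and 11.3 in Δisw2 and 10.2 and 14.9 in WT. In Δtup1 PAU15 was called at diauxic shift only, by 2.27 ± 0.47, against 0.37 ± 0.37 at stationary phase, and the difference between phases was not called (limma adjusted p = 0.0718). The PAU15 call was lost without Δtup1 library 2, at 1.92, and with all 5 groups in 1 fit, at 2.22.

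PAU8, PAU9 and PAU10 are best given as reads. At stationary phase PAU8 had 33 and 6 reads in Δtup1, 63 and 6 in Δsds3, 7 and 0 in Δxbp1, 8 and 1 in Δisw2 and 15 and 5 in WT. At diauxic shift PAU8 had 28 and 64 reads in Δtup1, 37 and 5 in Δsds3, 9 and 9 in Δxbp1, 2 and 6 in Δisw2 and 5 and 9 in WT. It was called at diauxic shift, 2.80 ± 0.63 (limma adjusted p = 0.00279), and not at stationary phase, 1.30 ± 0.60 (limma adjusted p = 0.0924), and the call was lost without Δtup1 library 2, at 2.28, and with all 5 groups in 1 fit, at 2.65. At stationary phase PAU9 had 25 and 8 reads in Δtup1, 21 and 2 in Δsds3, 2 and 1 in Δxbp1, 1 and 0 in Δisw2 and 5 and 0 in WT. At diauxic shift PAU9 had 33 and 54 reads in Δtup1, 20 and 1 in Δsds3, 1 and 1 in Δxbp1, 3 and 4 in Δisw2 and 0 and 5 in WT. With 0% unique stretches these may be reads of copies, and the values in Δtup1 were 3.60 ± 0.81 and 4.33 ± 0.80, both called. At stationary phase PAU10 had 15 and 2 reads in Δtup1, 41 and 3 in Δsds3, 2 and 0 in Δxbp1, 2 and 1 in Δisw2 and 7 and 0 in WT. At diauxic shift PAU10 had 11 and 22 reads in Δtup1, 21 and 2 in Δsds3, 5 and 1 in Δxbp1, 2 and 1 in Δisw2 and 1 and 0 in WT. Both WT libraries were at or under the floor of 3 reads at diauxic shift, so the rise in Δtup1 there is given as at least 6.89-fold, against 3 reads in each WT library.

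Because reads may move between copies, reads of all PAU genes were also summed in each library before the fit. The sum was 9217 and 2852 reads in Δtup1 and 7099 and 866 in WT at stationary phase, a log2 fold change of 1.78 ± 0.21 (limma adjusted p = 5.61e-05). At diauxic shift it was 18138 and 33862 reads in Δtup1 and 3279 and 4846 in WT, 2.99 ± 0.36 (limma adjusted p = 2.28e-06). Both were called, and both were smaller than the median over PAU genes tested singly, 2.50 at stationary phase and 3.58 at diauxic shift. In Δsds3 the sum was 8105 and 854 reads against 7099 and 866 in WT at stationary phase, 0.21 ± 0.20 (limma adjusted p = 0.39), and 8124 and 3581 against 3279 and 4846 at diauxic shift, 0.41 ± 0.47 (limma adjusted p = 0.637). Neither was called, although the medians over single PAU genes were 1.27 and 1.31. PAU23, PAU7 and PAU17 had the highest mean normalized reads of the PAU genes in WT at both phases. By sequence, the 3 PAU genes with 75% or more unique stretches, PAU7, PAU17 and PAU23, had 0 called higher and 1 lower in Δtup1 at stationary phase, and 2 higher and 0 lower at diauxic shift. The 6 DAN and TIR genes, all above 75%, had 5 called higher and 0 lower at each phase. Among the members under 75% that were tested, 8 of 11 were higher and 1 lower at stationary phase and 11 of 12 higher at diauxic shift. At stationary phase the 8 PAU genes called higher in Δtup1 were thus all under 75% unique. Of the members under 75%, PAU8, PAU9 and PAU20 passed the filter on low reads through the Δtup1 libraries alone at both phases. PAU4 and PAU13 did so at stationary phase and PAU10 at diauxic shift, whereas above 75% only DAN1 did. The split by unique share is thus set in part by the filter.

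At stationary phase the members called in Δsds3 went both ways, more of them higher, and the share called lower was below that of all genes. There 11 of 20 members tested were called higher in Δsds3 than in WT and 3 lower, where 27.6% of all genes were called higher, 25.4% lower and 53% either way. With an unadjusted p under 0.05, 17 of 20 members and 66.4% of all genes passed, and the median over the members was 1.14 against 0.00 over all genes. Of the 20, PAU4, PAU8, PAU10, PAU13 and PAU20 passed the filter through the Δsds3 libraries alone, and 4 of these 5 were called, against 10 of the other 15, 3 of them lower. By sequence, the 9 members with 75% or more unique stretches had 2 called higher, DAN1 and TIR3, and 3 lower, with a median of -0.52, whereas the 11 tested under 75% had 9 higher and 0 lower, with a median of 1.95. The 9 PAU genes called higher in Δsds3 were all under 75% unique, and PAU7 and PAU17, which fell, were above it; the part of reads from copies in this was not tested. DAN1 changed by 2.54 ± 0.45 (limma adjusted p = 0.000619), TIR3 by 1.20 ± 0.25 (limma adjusted p = 0.00168) and PAU5 by 1.09 ± 0.21 (limma adjusted p = 0.00123). PAU20, PAU4 and PAU13 gave 3.25 ± 0.65, 3.12 ± 0.50 and 2.99 ± 0.65, PAU10, PAU3 and PAU12 2.72 ± 1.02, 2.02 ± 0.38 and 1.95 ± 0.28, and PAU24 and PAU15 1.36 ± 0.29 and 0.90 ± 0.29, all called. PAU17 fell by 1.22 on the log2 scale (limma adjusted p = 0.000405), PAU7 fell by 1.18 (limma adjusted p = 0.00512) and TIR2 fell by 0.60 (limma adjusted p = 0.0146). TIR2 lies at the edge of the 1.5-fold minimum and was not called with TMM scaling, at -0.56, with edgeR, at -0.57, without WT library 1, at -0.51, or without Δsds3 library 3, at -0.53. Without WT library 1 PAU7 was not called either, at -0.91. PAU10 lost its call with DESeq2, at 2.80, and without WT library 3, at 1.79, and PAU15 without either WT library or Δsds3 library 1, at 0.76 to 0.92. TIR1 stood at 0.56 ± 0.32 (limma adjusted p = 0.149), TIR4 at -0.52 ± 0.22 (limma adjusted p = 0.0546) and DAN4 at -0.55 ± 0.16 (limma adjusted p = 0.0141), the last short of 1.5-fold.

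At diauxic shift only DAN1 was called in Δsds3, 1 of 18 members tested, where 1.94% of all genes were called higher, 0.852% lower and 2.79% either way. With an unadjusted p under 0.05, 5 members and 23.5% of all genes passed. DAN1 changed by 4.71 ± 0.74 (limma adjusted p = 0.0259), having passed the filter through the Δsds3 libraries alone, and the call was lost without WT library 1, at 4.05. PAU20 stood at 3.78 ± 0.96 (limma adjusted p = 0.07), PAU24 at 2.51 ± 0.61 (limma adjusted p = 0.066) and TIR1 at 2.17 ± 0.63 (limma adjusted p = 0.0992), none of them called. The number of members called depended on which library was left out, and the share of all genes called was not taken in those runs. The change in the effect of SDS3 deletion between phases was called for 0 of 21 members by limma and 0 by edgeR, where 0.0773% of all genes were called by limma, 0.0464% higher and 0.0309% lower. With an unadjusted p under 0.05, 3 members and 9.22% of all genes passed.

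Few members were called after loss of Xbp1 or Isw2. At stationary phase 1 of 14 members tested was called in Δxbp1, where 12.3% of all genes were called higher, 11.5% lower and 23.9% either way. It was PAU7, lower in Δxbp1 at -0.91 ± 0.21 (limma adjusted p = 0.00682), with 550.2 and 433 normalized reads in Δxbp1 against 1111 and 780.3 in WT. Members called came to 3 without Δxbp1 library 1 and 2 without WT library 3. At diauxic shift 0 of 17 were called by limma in Δxbp1, and 0 by edgeR or DESeq2, where limma called 0.465% of all genes, and 0 members against 7.53% of all genes had an unadjusted p under 0.05. In Δisw2 at stationary phase 1 of 15 was called, TIR2, higher by 0.79 ± 0.16 (limma adjusted p = 0.0376), where 1.21% of all genes were called higher, 0.706% lower and 1.92% either way. Its 832 and 746 normalized reads in Δisw2 did not overlap the 479 and 433 in WT, but the call was lost when either Δisw2 library was left out and without a filter on low counts, and 4 members were called without WT library 1. With an unadjusted p under 0.05, 6 of 15 members and 14.9% of all genes passed in Δisw2 at stationary phase, where the members ran from -1.85 for TIR1 to 2.18 for PAU13. PAU13 had 33.1 and 51 normalized reads in Δisw2 against 16.5 and 3.16 in WT, without overlap, at 2.18 ± 0.68 (limma adjusted p = 0.156), not called, and passed the filter through the Δisw2 libraries alone. In Δxbp1 at stationary phase 3 of 14 members and 40.9% of all genes had an unadjusted p under 0.05. TIR1 was the lowest in Δisw2, at -1.85 ± 0.50 (limma adjusted p = 0.0952), resting on 17 and 2 reads in Δisw2 against 109 and 19 in WT, and was not called. At diauxic shift 0 of 16 were called in Δisw2 by limma and 0 by edgeR or DESeq2, where limma called 0.096% of all genes, 0.064% higher and 0.032% lower, and 1 member against 3.97% of all genes had an unadjusted p under 0.05. The effect of either deletion differed between phases for 0 of 18 members in Δxbp1 and 0 of 19 in Δisw2 by limma, and for 0 by edgeR, where 0.394% and 0% of all genes were called. At an unadjusted p under 0.05 these counts were 0 and 0 members, against 14.9% and 4.01% of all genes. The median over members tested was 0.07 in Δxbp1 and -0.13 in Δisw2 at stationary phase, and 0.24 and -0.18 at diauxic shift.

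The strains were also set against each other, since all comparisons of a phase share the same WT libraries. Members called higher in Δtup1 than in Δsds3 numbered 12 of 21 at stationary phase, with 2 lower. Of all genes, 29.6% were called higher there and 28.1% lower, 57.7% together. The members called higher numbered 11 of 21 at diauxic shift, with 0 lower, where 5.22% and 3.4% of all genes were, 8.62% together. At stationary phase TIR1 differed by 5.50 ± 0.25 (limma adjusted p = 3.7e-05), DAN1 by 4.95 ± 0.29 (limma adjusted p = 5.05e-05) and PAU24 by 3.34 ± 0.21 (limma adjusted p = 6.08e-05). Those lower in Δtup1 were PAU23, at -1.86 ± 0.25, and PAU2, at -1.05 ± 0.37. PAU3, PAU4 and PAU20 were not called at stationary phase, with differences of 0.08 ± 0.31, -0.13 ± 0.35 and -0.02 ± 0.36. The count at diauxic shift fell to 4 without Δtup1 library 2 and to 5 without Δtup1 library 1, and came to 19 without Δsds3 library 1. Against Δxbp1, 15 of 20 members were higher and 2 lower in Δtup1 at stationary phase, where 27.7% and 22.5% of all genes were. For diauxic shift these were 17 of 21 higher and 1 lower, where 16.7% and 11.9% of all genes were. Either way 50.2% of all genes were called at stationary phase and 28.7% at diauxic shift. Against Δisw2, 14 of 20 were higher and 1 lower at stationary phase, where 26% and 23.6% of all genes were. For diauxic shift these were 18 of 21 higher and 0 lower, where 17.8% and 12.1% of all genes were. Either way 49.6% of all genes were called at stationary phase and 29.9% at diauxic shift.

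The rise in Δtup1 was smaller at stationary phase than at diauxic shift for 8 of 21 members by limma's interaction term, and larger for 0, where 4.55% of all genes were called lower, 3.46% higher and 8.01% either way. These were DAN1, TIR1, TIR2, TIR3, TIR4, PAU24, PAU7 and PAU17, with differences of the log2 fold change between -1.78 ± 0.33 for TIR4 and -2.99 ± 0.54 for DAN1. DAN4 gave -0.81 ± 0.40, PAU5 -0.81 ± 0.77, PAU12 -1.09 ± 0.43 and PAU13 1.04 ± 0.81, not called. Leaving out a single library moved the count of 8 to 5 without WT library 1 at diauxic shift, to 2 without WT library 1 at stationary phase and to 5 without WT library 3 at stationary phase.

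**Figure D4:**
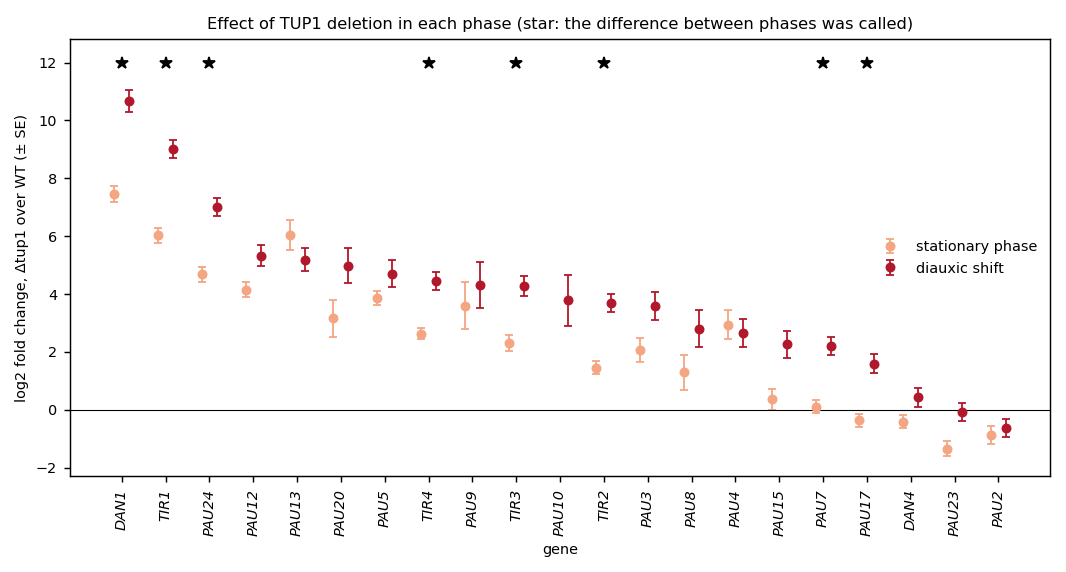
Log2 fold change of Δtup1 over WT with its standard error for the 21 members tested, at stationary phase (light) and diauxic shift (dark), in order of the value at diauxic shift; stars mark the 8 genes whose difference between phases was called. DAN1 stands at 7.45 and 10.68 and PAU23 at -1.35 and -0.08; PAU10 has no stationary point because it had too few reads to be tested there.

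The phases were then compared within each strain. Median-ratio scaling holds the middle gene near no change between phases. Higher and lower here are thus relative to the other genes and are not amounts of RNA per cell. In Δtup1 7 of 21 members were called lower at stationary phase than at diauxic shift and 0 higher, where 15.5% and 13.2% of all genes were. They were all 6 DAN and TIR genes and PAU17, with log2 changes of -1.94 ± 0.28 for TIR3, -1.86 ± 0.28 for TIR1, -1.32 ± 0.26 for TIR2, -1.26 ± 0.26 for TIR4, -1.18 ± 0.26 for DAN1, -1.09 ± 0.25 for DAN4 and -1.34 ± 0.26 for PAU17. In WT 4 of 18 were called higher at stationary phase and 0 lower, where 12.6% and 12.9% of all genes were: PAU15 by 2.15 ± 0.45 (limma adjusted p = 0.00672), PAU24 by 2.04 ± 0.42 (limma adjusted p = 0.00575), PAU7 by 1.47 ± 0.29 (limma adjusted p = 0.00529) and TIR2 by 0.88 ± 0.25 (limma adjusted p = 0.0264). The WT count was 1 without library 1 of stationary phase, 2 without library 3 and 11 without library 2 of diauxic shift. In Δxbp1 5 of 17 were called higher, PAU15, PAU23, TIR1, TIR2 and PAU7, and 0 lower, where 17% and 21.2% of all genes were, and the count came to 3 without library 1 of stationary phase and 2 without library 3. In Δisw2 8 of 15 were called higher, with PAU15 at 2.32 ± 0.73, and TIR3 lower, at -0.96 ± 0.25, where 17.2% and 17.9% of all genes were, and the count of 9 came to 2 when either stationary library was left out. In Δsds3 no gene of any kind was called by limma, with 1 member and 6.04% of all genes at an unadjusted p under 0.05. The number of members called depended on which library was left out, and the share of all genes called was not taken then. PAU7 in WT, for example, had 1111 and 780.3 normalized reads at stationary phase against 257 and 439 at diauxic shift, without overlap.

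Other genes of the oxygen response gave the setting. Of 8 regulators of anaerobic genes, 8 were called higher in Δtup1 at stationary phase and 5 at diauxic shift, and 0 lower at either, with medians of 1.64 and 1.36. ROX1, the repressor of hypoxic genes, changed by 3.0 ± 0.22 and 1.78 ± 0.34 at stationary phase and diauxic shift, UPC2, the activator of the DAN and TIR genes, by 3.99 ± 0.22 and 2.83 ± 0.37, and MOT3, another repressor, by 1.17 ± 0.26 and 0.94 ± 0.34, the last value not called. HAP1, the haem-responsive activator, gave 1.06 ± 0.20, called, and 0.27 ± 0.31, not called. In Δsds3 at stationary phase UPC2 rose, by 1.41 ± 0.19 (limma adjusted p = 9.31e-05), as did SUT2, named after its value was seen, and ROX1, MOT3 and HAP1 fell, ROX1 by 0.79 on the log2 scale. Of 7 other hypoxic genes, 7 were called higher in Δtup1 at each phase, OLE1, the fatty acid desaturase, by 3.65 ± 0.24 and 2.10 ± 0.43, and CYC7, the hypoxic cytochrome c, by 2.88 ± 0.23 and 2.57 ± 0.38. In Δsds3 at stationary phase 3 of the 7 were called higher and 2 lower, with a median of 0.41. Those higher were AAC3 at 5.49 ± 0.71, ANB1 at 3.26 ± 0.35 and HEM13 at 1.10 ± 0.21, and OLE1 and CYC7 fell, by 1.10 and 1.34 on the log2 scale. At diauxic shift the hypoxic genes called in Δsds3 were ANB1 and AAC3. ANB1, AAC3 and HEM13 were picked out after their values were seen.

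Of 4 genes of sterol uptake and esterification, 3 were called higher in Δtup1 at stationary phase and 4 at diauxic shift, among them ARE2, a sterol acyltransferase, at 2.38 ± 0.22 and 1.17 ± 0.32. AUS1, a sterol importer that lies near TIR2 and TIR4 on chromosome XV, gave 0.75 ± 0.20 and 1.23 ± 0.30, both called. PDR11, its counterpart near TIR3 on chromosome IX, gave 0.04 ± 0.21, not called, and 1.63 ± 0.31, called. In Δsds3 at stationary phase ARE1, another sterol acyltransferase, was called higher, at 0.64 ± 0.15, and AUS1 and PDR11 fell, by 0.74 and 0.73 on the log2 scale. Of 12 aerobic wall proteins, 6 were called higher and 2 lower in Δtup1 at stationary phase, and 4 higher and 0 lower at diauxic shift. SED1, the main wall protein of stationary cells, gave -0.35 ± 0.30 and 0.16 ± 0.46, neither called, and SPI1 2.63 ± 0.25 and 2.85 ± 0.41, both called. CWP1 and CWP2, the aerobic proteins that anaerobic mannoproteins replace, are given after their values were seen: CWP1 changed by 4.07 ± 0.28 and 4.29 ± 0.36, both called, and CWP2 by -2.32 ± 0.22, called, and -0.88 ± 0.44, not called. In Δsds3 at stationary phase PIR1 stood at 3.69 ± 0.22 and HSP150 at 1.95 ± 0.26, both called, and 5 of the 12 were higher and 4 lower. In Δxbp1 at stationary phase 3 regulators, ECM22, SUT2 and HAP1, were called higher, the first of them named after its value was seen.

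**Figure D5:**
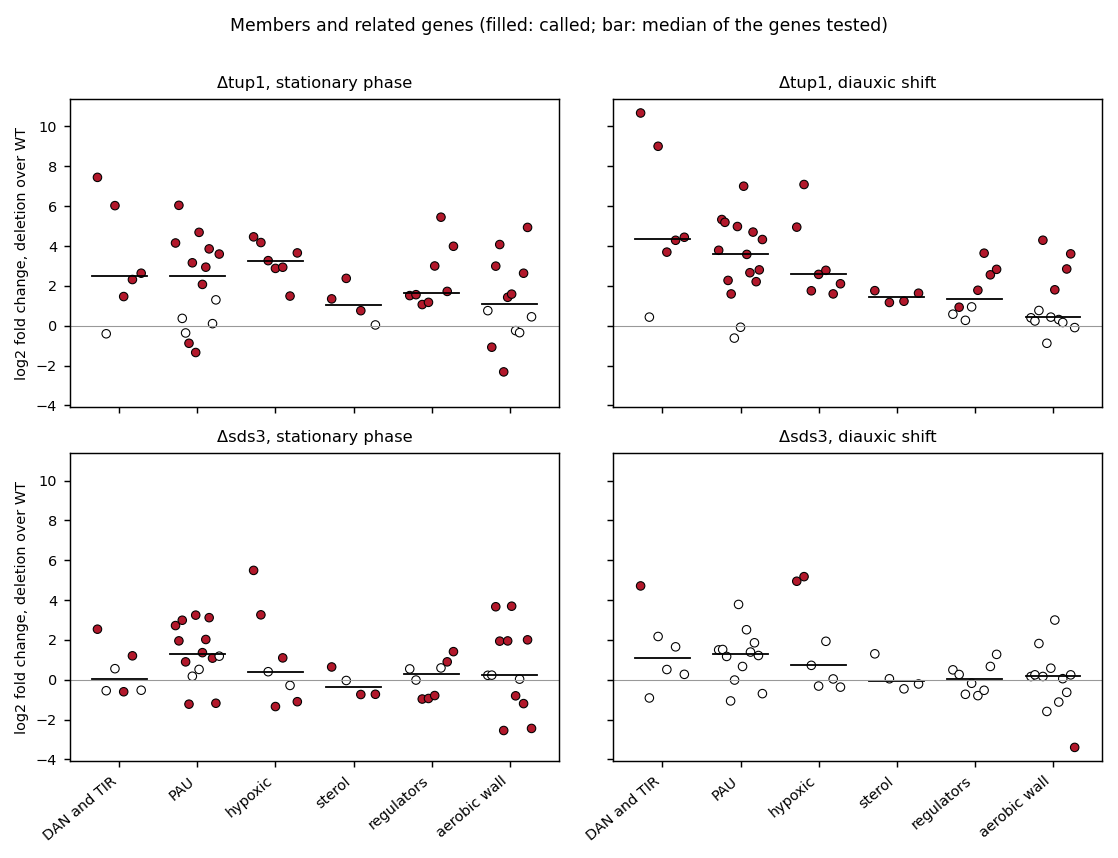
Log2 fold change of each deletion over WT for the members (DAN and TIR, PAU) and 4 groups of related genes in Δtup1 (top) and Δsds3 (bottom), at stationary phase (left) and diauxic shift (right); each point is 1 gene tested, filled when called, and bars are medians. In Δtup1 at diauxic shift the DAN and TIR median is 4.36, the PAU median 3.58 and the aerobic wall median 0.41, and in Δsds3 at stationary phase the PAU median is 1.27 and the DAN and TIR median 0.02.

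Position and promoter letters were set beside the calls as a description. Within 30000 bases of a chromosome end lay 19 of the 24 PAU genes and 0 of the 6 DAN and TIR genes, DAN4 missing the limit at 30011. In Δtup1 7 of 9 members tested near an end were called higher at stationary phase and 10 of 10 at diauxic shift, against 6 of 11 and 8 of 11 farther in. For the other genes near an end these shares were 29.4% of 299 and 30.0% of 313, and farther in 25.9% of 5387 and 12.3% of 5446. In Δsds3 at stationary phase 8 of 9 members near an end were called higher and 0 lower, against 3 higher and 3 lower of 11 farther in, with 31.9% of the other genes near an end called higher. Near an end, PAU8, PAU9 and PAU20 passed the filter through Δtup1 libraries alone at both phases. So did PAU4 and PAU13 at stationary phase and PAU10 at diauxic shift, and farther in only DAN1. PAU4, PAU8, PAU10, PAU13 and PAU20 passed through Δsds3 libraries alone. The shares near an end thus rest in part on the filter. All members tested there were PAU genes under 75% unique, so position and shared sequence were not separated. Members with an AR1 match were called higher in Δtup1 in 8 of 14 cases at stationary phase and 12 of 15 at diauxic shift, and members without one in 5 of 6 and 6 of 6. DAN4, PAU2 and PAU23, which were not higher in Δtup1 at either phase, all hold the AR1 letters printed above.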

How the data were processed

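RNA was sequenced from Δtup1, Δsds3, Δxbp1, Δisw2 and WT cells at stationary phase and diauxic shift, with 2 biological replicates per group, using a poly-A mRNA kit and paired reads. Per the labels and methods, the authors aligned reads with Bowtie2 to sacCer3 and normalized with DESeq2. The counting program and annotation are not given in the sources used here. The authors deposited 8 tables, 1 for each deletion and phase, whose values are a signal of gene counts divided by DESeq2 size factors. The steps between low values gave back whole reads for 100% of values, within 0.001 of a read or a share of 1e-06 of the value, whichever was larger. Columns of the authors' own comparisons (mean, fold change, its error, test statistic and p-values) were not used.

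Within each table, log2(normalized count + 1) was tested with limma 3.58.1 (R 4.3.3), after a filter on low recovered reads (filterByExpr of edgeR 4.0.16), with Benjamini-Hochberg adjustment over all genes tested, a threshold of 0.05 and a minimum of 1.5-fold. Phases, and Δtup1 against other deletions, were compared on recovered reads scaled over all 20 libraries. With 2 libraries in each group, an exact permutation test of a single gene cannot reach 0.05, and whether replicates share a day is not given. The p-values rest on a variance that limma draws in part from other genes of similar level, and they cover these samples only. Alternatives were other pseudocounts, filters, thresholds and scalings, edgeR and DESeq2 1.42.0 on recovered reads, a fit over all 5 groups of a phase, a replicate block, and leaving out each library. The fits were tested on simulated data.

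The members and gene lists were chosen with earlier results of these data known. All 30 members were accounted for. Values in every library were given for the 6 DAN and TIR genes, the 6 PAU genes with the highest group mean and any other member called, and at most 4 genes from each other list were to be named, those with the highest group mean. SUT2, ECM22, CWP1, CWP2, ANB1, AAC3 and HEM13 were named outside this rule, after their values were seen. Sequences are from RefSeq, build R64, in which all 30 members were matched. Sequences and positions in the W303 strains themselves were not read.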

Additional observations from a re-analysis of the deposited data

Results flagged for a closer look

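For 8 members the log2 fold change of Δtup1 over WT differed between the phases by limma's interaction term, being smaller at stationary phase in each. The difference, stationary phase minus diauxic shift, was -2.99 ± 0.54 (limma adjusted p = 0.0108) for DAN1, -2.91 ± 0.41 (limma adjusted p = 0.00345) for TIR1 and -2.20 ± 0.35 (limma adjusted p = 0.00599) for TIR2. TIR3 gave -1.93 ± 0.51 (limma adjusted p = 0.0419) and TIR4 -1.78 ± 0.33 (limma adjusted p = 0.012). Among the PAU genes it was -2.25 ± 0.39 (limma adjusted p = 0.00829) for PAU24, -2.08 ± 0.41 (limma adjusted p = 0.0145) for PAU7 and -1.93 ± 0.45 (limma adjusted p = 0.0264) for PAU17. The stationary libraries numbered 3 were several times shallower than the other libraries, and the part of depth in these differences was not tested beyond leaving out each library.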

How the results depend on the processing

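In the comparisons with WT, no called member changed direction in an alternative run that tested it. Among the values of single genes in those runs, 711 kept their call and 30 lost it. The run without a fold minimum is among them, and there a called member could not lose its call. Runs in which a called member was no longer tested are left out of this tally. PAU10 was tested in 13 of 15 runs in Δtup1 at diauxic shift and in 11 in Δsds3 at stationary phase. PAU9 was tested in 12 in Δtup1 at stationary phase. The tally does not cover the comparisons between phases or between deletions. Members called in Δsds3 at diauxic shift, 1 as reported, were 4 with DESeq2, 0 at an adjusted p under 0.01, 5 with all 5 groups of the phase fitted together and 5 with a replicate block. In Δxbp1 at stationary phase, 1 as reported, they were 2 with all 5 groups and 2 with the block. In Δisw2 at stationary phase, 1 as reported, they were 0 at an adjusted p under 0.01, 0 with no filter on low counts, 2 with all 5 groups and 3 with the block. Replicate numbers pair nothing in the labels, and the replicate differences of 2 groups correlated across genes with r between -0.018 and 0.58. With the block, genes called numbered 997 against 177 without it in Δsds3, 162 against 29 in Δxbp1 and 135 against 6 in Δisw2 at diauxic shift, and 297 against 114 in Δisw2 at stationary phase. The causes were not tested.

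Leaving out each library in turn gave, at stationary phase and against WT, 13 to 15 members called in Δtup1, 11 to 14 in Δsds3, 1 to 3 in Δxbp1 and 0 to 4 in Δisw2. At diauxic shift it gave 15 to 18 in Δtup1, 0 to 12 in Δsds3, 0 to 1 in Δxbp1 and 0 to 1 in Δisw2. The change of effect between phases gave 2 to 10 in Δtup1, 0 to 2 in Δsds3 and 0 in Δxbp1 and Δisw2. Stationary phase against diauxic shift gave 6 to 8 in Δtup1, 0 to 13 in Δsds3, 2 to 5 in Δxbp1, 2 to 11 in Δisw2 and 1 to 11 in WT. Δtup1 gave 12 to 13 at stationary phase and 4 to 19 at diauxic shift against Δsds3, 15 to 16 and 13 to 17 against Δxbp1, and 11 to 14 and 16 to 18 against Δisw2. A group left with 1 library was assumed to vary like the others in the fit. The share of all genes called was not taken in these runs, so their counts of members cannot be set against it. Depth limits the PAU genes with few reads most, and the shallow stationary libraries more than those of diauxic shift.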
